A study of Mus musculus with 15 samples.

Results

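Transcripts of 10 histone chaperones were followed in zygotes and 2-cell mouse embryos with and without maternal Usp16: the HIRA complex genes Hira, Ubn1 and Cabin1, the H3-H4 carriers Asf1a and Asf1b, the CAF-1 subunits Chaf1a and Chaf1b, the H3.3 chaperone pair Daxx and Atrx, and the oocyte nucleoplasmin gene Npm2. They were chosen by name, and all 10 were found among the 14392 genes of the deposited table, with each of them above the table's lowest value of 1 in every library. USP16 removes the single ubiquitin of the Polycomb mark H2AK119ub1 from histone H2A, and the series asked how its loss from the oocyte affects the early embryo. RNA-seq was carried out on 4 groups of 2 libraries, each library made from 10 pooled embryos: zygotes and 2-cell embryos of WT mothers (WT) and of mothers lacking Usp16 in the oocyte (cKO). The WT mothers were Usp16+/+ and the cKO mothers Usp16 fl/fl;Gdf9-Cre, in which Cre is driven in oocytes from the primordial follicle stage on. All mice were on a C57BL/6 background, the mothers were pubertal superovulated females, and the fathers were adult WT males. Every cKO embryo was therefore labelled maternal null and paternal wild type, so that its own genome still carried an intact Usp16 allele. The recombined maternal allele is an in-frame deletion, and embryos of all groups were kept in KSOM medium. No drug or other treatment separated the groups beyond the hormones given to all mothers. The labels do not say whether the 2 libraries of a group came from different mothers or days, so the p-values measure the spread between these libraries, which may be technical.

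FPKM, the number of sequenced fragments of a gene relative to its exon length and to the library's total, is a share of a library's RNA, so more RNA of one gene and less of all others cannot be told apart. The table holds no read counts, and the depth of the libraries is unknown. The summed FPKM was 547752 to 593317 in 7 libraries and 770989 in cKO 2-cell replicate 2. Usp16 itself was at 184 and 187 FPKM in the WT zygote libraries and at 16.8 and 22.0 in the cKO zygote libraries. In 2-cell embryos it was at 168 and 183 in WT and at 168 and 84.8 in cKO libraries, so the deletion is visible in this table at the zygote stage. All 6 oocyte markers were above the floor in both libraries of each group, with a summed FPKM of 9841 to 10728 in zygote, 4680 to 5841 in WT 2-cell and 1032 to 2492 in cKO 2-cell libraries. The summed FPKM of 5 genes that mark the 2-cell stage, floors included, was 6.45 to 9.99 in the zygote libraries, 459 to 680 in the WT and 166 to 178 in the cKO 2-cell libraries. Of 8 cumulus cell markers, 2 were listed. Their summed FPKM, floors included, was 23.3 to 27.7 in zygote libraries, nearly all from Cyp19a1, with Foxl2 at the floor of 1 in each. It was 2.00 to 2.84 in 2-cell libraries, where both genes were at or near the floor. Of 5 sperm markers, 4 were listed, summing to 16.5 to 23.1 in zygote libraries, floors included. Most of this came from Prm2 (13.5 to 20.1), while Prm1 and Tnp1 were at the floor in every zygote library. The part of these transcripts in the results was not tested.

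Histone chaperones bind newly made or displaced histones, keep them from sticking to other molecules, and hand them to DNA. CAF-1 receives H3.1 and H3.2 with H4 from ASF1 and deposits them behind the replication fork, whereas the HIRA complex and the DAXX-ATRX pair place the variant H3.3 outside replication, the former at active genes and in the decondensing paternal genome, the latter at repeats, telomeres and heterochromatin. In the egg, nucleoplasmin and HIRA are known for rebuilding sperm chromatin after fertilization, when protamines are replaced by maternal histones.

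The members covered a wide range of levels. In WT zygotes, Npm2 was at the top with 762 ± 104 FPKM (mean ± SD, n = 2 here and below), above 99.3% of the listed genes, and Hira at the bottom with 2.67 ± 0.360, above 45.6%. Between them stood Asf1b (276 ± 25.8), Asf1a (221 ± 44.4), Atrx (51.5 ± 19.9), Chaf1a (24.5 ± 4.55), Ubn1 (22.2 ± 0.309), Cabin1 (10.4 ± 2.02), Daxx (6.07 ± 0.939) and Chaf1b (3.75 ± 1.25). Of the 9 pairs of neighbours in this order, 2 overlapped between libraries, Chaf1a with Ubn1 and Chaf1b with Hira. In WT 2-cell embryos the order was Asf1b, Npm2, Asf1a, Ubn1, Chaf1b, Atrx, Cabin1, Chaf1a, Daxx and Hira, with 4 of the 9 pairs of neighbours overlapping: Ubn1 with Chaf1b, Atrx with Cabin1, Cabin1 with Chaf1a, and Daxx with Hira. Chaf1b had moved from rank 9 to rank 5 and Chaf1a from rank 5 to rank 8. The order in cKO zygotes was that of WT zygotes, with Asf1b and Asf1a overlapping. In cKO 2-cell embryos 7 of the 9 pairs of neighbours overlapped, and only Asf1b over Npm2 and Npm2 over Asf1a were kept apart.

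**Figure D1:**
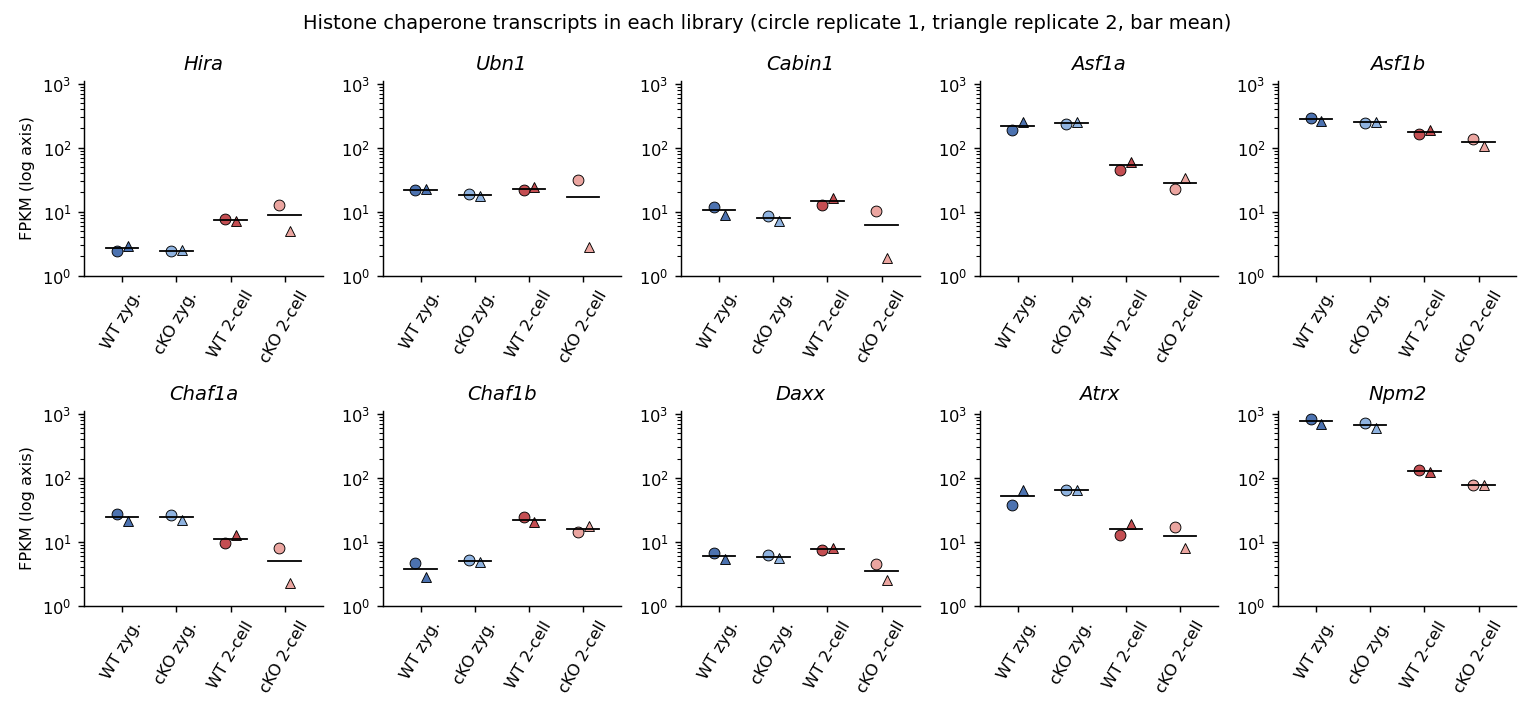
FPKM (log axis) of the 10 histone chaperones in each library of the 4 groups (circles, replicate 1; triangles, replicate 2; bars, group means). Npm2, Asf1a and Atrx drop and Chaf1b climbs between the stages in both genotypes, and the triangles of Ubn1, Cabin1 and Chaf1a lie far below the circles in cKO 2-cell embryos.

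The passage from zygote to 2-cell embryo in WT embryos is the setting against which loss of maternal Usp16 was compared. Here 4 of the 10 members fell, Npm2, Asf1a, Atrx and Asf1b, and 2 rose, Chaf1b and Hira (limma on log2(FPKM + 1), Benjamini-Hochberg adjusted p under 0.05 over all 14392 genes). Among all genes 15.5% fell and 34.2% rose by the same test. The libraries of the 2 stages did not overlap for 5 members that were lower (26.4% of all genes) and 4 that were higher (49.4%). The median log2 fold change was -0.30 over the members and 0.27 over all genes. By a fold of the group means above 3, the threshold used in the study, Npm2, Asf1a and Atrx were lower (8.78% of all genes) and Chaf1b was higher (26.0%).

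Nucleoplasmin, the product of Npm2 (chr14:71047109-71052891 in mm9, minus strand), is made by the oocyte and is required for organising the nucleoli and chromatin of egg and zygote. Npm2 was at 836 and 689 FPKM in WT zygotes and at 134 and 124 in WT 2-cell embryos. It stood at 722 and 613 in cKO zygotes and at 77.7 and 78.4 in cKO 2-cell embryos. Every 2-cell library was thus far below every zygote library. The fall in WT was 5.90-fold between the means, or -2.55 on the log2(FPKM + 1) scale (standard error 0.20, limma adjusted p = 0.000229).

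ASF1A and ASF1B bind H3-H4 dimers and pass them to the depositing complexes, ASF1A mainly to HIRA, and the genes differed in how much they fell. Asf1a (chr10:53316767-53329019, plus strand) was at 189 and 252 FPKM in WT zygotes, 237 and 250 in cKO zygotes, 45.4 and 60.2 in WT 2-cell embryos, and 22.2 and 34.1 in cKO 2-cell embryos. Asf1b (chr8:86479406-86494096, plus strand) was at 295 and 258, 245 and 253, 164 and 192, and 137 and 105 in the same order of groups. For both genes the stages were separated in each genotype. In WT, Asf1a fell by 2.04 (standard error 0.28, limma adjusted p = 0.00174) and Asf1b by 0.63 (standard error 0.21, adjusted p = 0.0490) on the log2 scale. The call of Asf1b was lost without any one of the zygote or WT 2-cell libraries, at adjusted p of 0.0631 to 0.186.

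CAF-1 is the replication-coupled chaperone, with CHAF1A as its large scaffold subunit and CHAF1B as its middle one, and the genes of these partners went in different directions. Chaf1b (chr16:93884146-93906360, plus strand) was at 4.63 and 2.86 FPKM in WT zygotes, 5.19 and 4.90 in cKO zygotes, 24.4 and 20.1 in WT 2-cell embryos, and 14.0 and 17.6 in cKO 2-cell embryos. Chaf1a (chr17:56179827-56206973, plus strand) was at 27.7 and 21.3, 26.7 and 21.7, 9.52 and 12.7, and 7.91 and 2.25. In WT, Chaf1b rose 5.95-fold between the means, by 2.31 on the log2 scale (standard error 0.27, limma adjusted p = 0.000916). Chaf1a was lower in both WT 2-cell libraries, with a log2 fold change of -1.08 that did not pass the test (standard error 0.48, adjusted p = 0.114). Without either cKO 2-cell library, Chaf1a passed, with an adjusted p of 0.0157 to 0.0159. Exons of Chaf1a overlap those of Ubxn6 on the opposite strand, and since the library kit does not mark strand, reads from this overlap cannot be told apart.

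Because the CAF-1 partners moved apart, their promoters are shown from RefSeq (GRCm38.p6, 250 bases before to 50 after the transcription start, gene strand). The Chaf1a window lies at chr17:56040166-56040465 and the Chaf1b window at chr16:93883651-93883950, both on the plus strand, and capitals mark matches to the motifs searched on both strands.
Chaf1a: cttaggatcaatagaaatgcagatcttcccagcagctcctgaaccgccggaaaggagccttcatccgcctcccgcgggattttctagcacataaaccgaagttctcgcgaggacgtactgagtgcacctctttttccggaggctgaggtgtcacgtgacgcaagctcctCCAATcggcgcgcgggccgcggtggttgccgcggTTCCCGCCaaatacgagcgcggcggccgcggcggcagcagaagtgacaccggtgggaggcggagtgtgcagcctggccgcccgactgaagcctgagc
Chaf1b: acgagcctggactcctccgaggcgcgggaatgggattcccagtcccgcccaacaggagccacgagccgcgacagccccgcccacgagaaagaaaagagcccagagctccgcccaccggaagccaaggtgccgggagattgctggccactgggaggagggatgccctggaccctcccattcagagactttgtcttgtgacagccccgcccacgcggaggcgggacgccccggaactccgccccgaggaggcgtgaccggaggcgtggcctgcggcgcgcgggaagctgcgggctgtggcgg
The Chaf1a window held CCAAT at position -81 and TTCCCGCC, the core of the E2F sites of many replication genes, at position -47, counted from the start. CCAAT was found in 37.4% and TTCCCGCC in 2.19% of 32851 mouse promoter windows of this length. The Chaf1b window held no match to these, to the other E2F form TTTNGCGC (1.38% of windows) or to TATAAA (13.6%). That says only that these exact letters are not in this window. The shorter TTCCCGC, which lacks the last base, does occur in the Chaf1b window, on the other strand as gcgggaa, and was not searched in other windows. GC content was 63.0% for Chaf1a and 70.3% for Chaf1b. Of the 10 members, 9 had a window in the table used, and TTCCCGCC was in that of Chaf1a alone. Copies of CCAAT numbered 4 in each of the windows of Asf1b and Atrx, 2 in each of those of Ubn1 and Cabin1, and 1 in that of Asf1a. Daxx had 3 windows, for different start sites, and 1 of them held a CCAAT, at position -204.

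HIRA is the core subunit of its complex, UBN1 binds H3.3 and makes the complex specific to it, and CABIN1 is an accessory subunit. Hira (chr16:18877130-18970402, plus strand) was at 2.42 and 2.93 FPKM in WT zygotes, 2.45 and 2.49 in cKO zygotes, 7.65 and 7.09 in WT 2-cell embryos, and 12.7 and 5.05 in cKO 2-cell embryos. Ubn1 (chr16:5050161-5086378, plus strand) was at 21.9 and 22.4, 18.9 and 17.4, 21.7 and 24.1, and 31.1 and 2.83. Cabin1 (chr10:75108855-75227102, minus strand) was at 11.9 and 9.01, 8.58 and 7.23, 12.6 and 16.4, and 10.3 and 1.91. Among these partners Hira alone separated the stages in both genotypes. In WT, Hira rose by 1.19 on the log2 scale (standard error 0.39, limma adjusted p = 0.0448), a 2.76-fold difference of the means. Ubn1 (log2 fold change 0.04, adjusted p = 1.00) and Cabin1 (0.44, adjusted p = 0.589) did not pass. The call of Hira was lost without any one of the zygote or WT 2-cell libraries, at adjusted p of 0.0915 to 0.183, and exons of Hira overlap the annotated gene Gm15797 on the same strand.

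DAXX binds H3.3-H4 and ATRX is the chromatin remodeller that brings it to heterochromatin. Atrx (chrX:102992954-103124736, minus strand) was at 37.4 and 65.5 FPKM in WT zygotes, 65.1 and 64.8 in cKO zygotes, 12.6 and 19.3 in WT 2-cell embryos, and 16.8 and 7.95 in cKO 2-cell embryos. Daxx (chr17:34046359-34052534, plus strand) was at 6.73 and 5.40, 6.17 and 5.62, 7.54 and 7.88, and 4.45 and 2.57. Atrx was lower in each 2-cell library than in any zygote library, whereas Daxx was slightly above the zygotes in WT and below them in cKO embryos. In WT, Atrx fell by 1.61 (standard error 0.43, limma adjusted p = 0.0219) and Daxx had a log2 fold change of 0.31 (standard error 0.28, adjusted p = 0.390). The call of Atrx was lost without WT zygote replicate 2, either cKO zygote library or either WT 2-cell library, at adjusted p of 0.0528 to 0.150.

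In cKO embryos the same stage comparison called 5 members lower, Npm2, Asf1a, Atrx, Chaf1a and Asf1b, against 27.1% of all genes, and 2 higher, Chaf1b and Hira, against 24.6%. Libraries did not overlap for 6 lower members (35.5% of all genes) and 2 higher members (32.3%). The log2 fold changes were -3.10 for Asf1a (limma adjusted p = 0.000314), -3.07 for Npm2 (0.000120), -2.39 for Atrx (0.00416), -2.22 for Chaf1a (0.00912) and -1.05 for Asf1b (0.00694). Chaf1b rose by 1.47 (adjusted p = 0.00461) and Hira by 1.39 (0.0244). Daxx (-0.64, adjusted p = 0.0990), Cabin1 (-0.63, 0.441) and Ubn1 (-0.79, 0.520) did not pass. Between the means, Asf1a was 8.64-fold, Npm2 8.55-fold, Atrx 5.25-fold and Chaf1a 4.77-fold lower, past the fold of 3 (19.2% of all genes), while Hira was 3.60-fold and Chaf1b 3.13-fold higher (22.8%). The median log2 fold change was -0.92 over the members and 0.0 over all genes. Leaving out cKO zygote replicate 1 ended the call of Chaf1a (adjusted p = 0.0662), and the call of Hira was lost without any one of the zygote or WT 2-cell libraries (0.0518 to 0.112). The call of Chaf1b was lost with library weights (limma adjusted p = 0.0561). In the fit of 2 groups only, the calls of Chaf1a (limma adjusted p = 0.0914) and Hira (0.150) were lost.

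**Figure D2:**
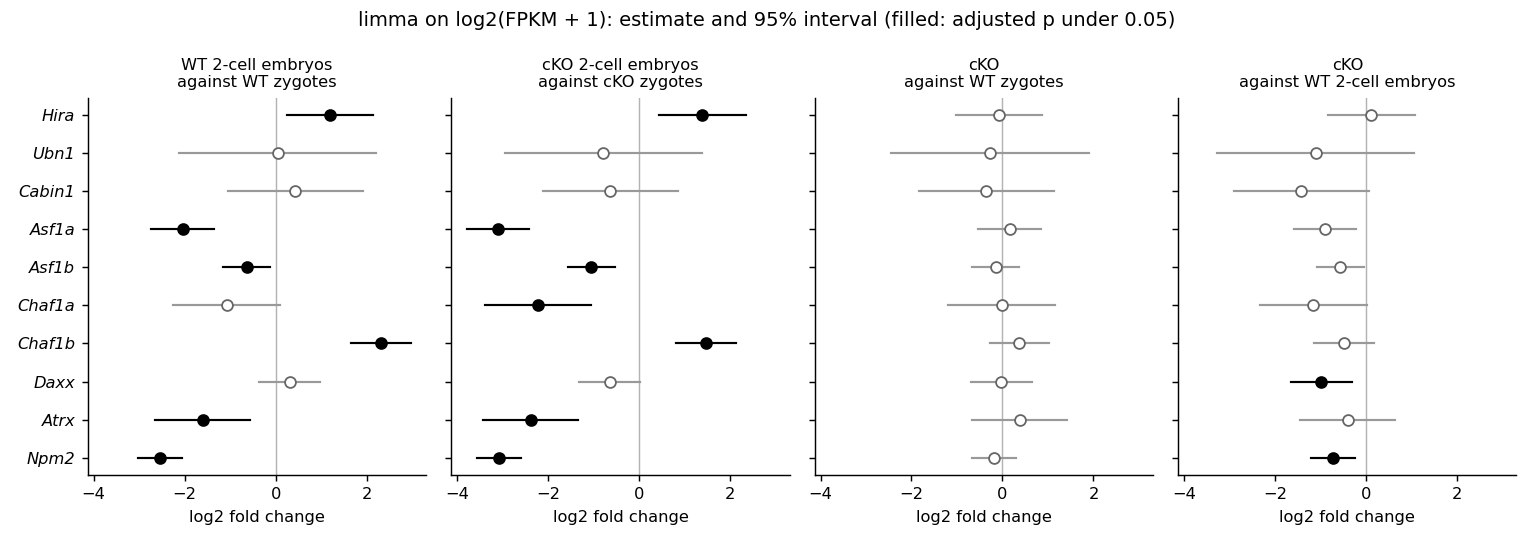
limma log2 fold changes of the 10 members on the log2(FPKM + 1) scale, with 95% intervals, for both stage comparisons and both genotype comparisons (filled points, adjusted p under 0.05). The stage panels hold 6 filled points in WT and 7 in cKO embryos, the zygote genotype panel holds 0, and the 2-cell genotype panel holds 2, Daxx and Npm2.

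The genotype comparison in zygotes asks whether oocytes lacking Usp16 hand over different chaperone transcripts. No member was called: limma gave 0 of 10 lower (0.0% of all genes) and 0 higher (0.0208%), 0 of the 10 had an unadjusted p under 0.05, and the fold of 3 also called 0 lower (0.0486% of all genes) and 0 higher (0.104%). The log2 fold changes were between -0.35 for Cabin1 and 0.38 for Atrx. The 95% intervals ran from -0.67 to 0.29 for Npm2 and from -0.67 to 0.37 for Asf1b. They ran from -0.53 to 0.84 for Asf1a, but from -2.45 to 1.89 for Ubn1. The model shares 1 spread per gene over the 4 groups, so these widths are not those of the zygote libraries alone. That of Ubn1 includes its cKO 2-cell pair (31.1 and 2.83 FPKM), while its zygote pairs were close (21.9 and 22.4 in WT, 18.9 and 17.4 in cKO). The cKO zygote libraries were both under the WT ones for Ubn1, Cabin1 and Asf1b (10.2% of all genes) and both over them for Chaf1b (15.8%). The main fit also missed the deleted gene, since Usp16 had a log2 fold change of -3.21 with a limma adjusted p of 0.191. Its standard error of 0.34 likewise includes the spread of its cKO 2-cell pair (168 and 84.8 FPKM). Usp16 passed in 1 of 17 alternatives, with library weights (limma adjusted p = 0.00344).

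At the 2-cell stage, after the embryonic genome has been switched on, 2 members were lower in cKO than in WT embryos, Npm2 and Daxx, and 0 were higher by limma. Of all genes, 24.6% were called lower and 6.16% higher, so that a count of 2 in 10 is near the background. Npm2, at 134 and 124 FPKM in WT and 77.7 and 78.4 in cKO libraries, was 1.65-fold lower, with a log2 fold change of -0.72 (standard error 0.20, 95% interval -1.20 to -0.24, limma adjusted p = 0.0385). Daxx, at 7.54 and 7.88 in WT and 4.45 and 2.57 in cKO libraries, had a cKO mean of 0.455 times the WT mean, with a log2 fold change of -0.98 (standard error 0.28, interval -1.65 to -0.31, adjusted p = 0.0401). For Npm2 the spread within each genotype was small beside the difference. Npm2 is itself an oocyte gene. The summed FPKM of the 6 oocyte markers, of which it is not one, was also lower in the cKO libraries (1032 to 2492 against 4680 to 5841). Most of that fall lay in Oosp1 (mean 1210 in cKO against 4323 in WT) and Bmp15 (73.6 against 534), and Zar1 was also lower (26.0 against 57.0). Zp3 (132 against 93.0) and Gdf9 (316 against 249) had higher means in cKO, and Mos was about level (4.42 against 4.24). The part of these shifts in the Npm2 result was not tested. Both calls were lost without any one of the zygote or WT 2-cell libraries, at adjusted p of 0.0535 to 0.0961 for Npm2 and 0.0740 to 0.137 for Daxx, and limma on the 4 2-cell libraries alone called 0 genes of the table (at an unadjusted p under 0.05, 3416 genes were lower and 819 higher).

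The other members did not pass. Asf1a (-0.90, limma adjusted p = 0.0568), Asf1b (-0.56, 0.0964), Chaf1a (-1.16, 0.122), Cabin1 (-1.42, 0.131) and Chaf1b (-0.47, 0.243) were lower in each cKO than in each WT library, as were Npm2 and Daxx. These 7 of 10 stand beside 43.4% of all genes, and 0 of 10 members stand beside 14.0% on the other side. Ubn1 (-1.11, 0.384), Atrx (-0.40, 0.517) and Hira (0.12, 0.856) overlapped. At unadjusted p under 0.05 there were 4 lower members, Npm2, Daxx, Asf1a and Asf1b, beside 33.4% of all genes, and the fold of 3 called 0 lower (13.5% of all genes) and 0 higher (2.84%). The median log2 fold change was -0.81 over the members. It was -0.30 over all genes, many of them at the floor, and -0.46 over the 9370 with a mean FPKM of at least 3. That shift of all genes depends on scaling: after each library was divided by its median ratio to the mean library the all-gene median was 0, limma called 1747 genes lower and 1437 higher instead of 3538 and 887, Npm2 stood at -0.24 (adjusted p = 0.350) and Daxx at -0.59 (0.0887).

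Whether the genotype difference itself changed from zygote to 2-cell stage was tested by the interaction term, which called 0 of 10 members lower (10.2% of all genes) and 0 higher (1.58%). At an unadjusted p under 0.05, Asf1a (-1.05, limma adjusted p = 0.137) and Daxx (-0.95, 0.161) were lower, 2 of 10 beside 25.5% of all genes. The steeper stage decline of Asf1a in cKO embryos was therefore not separated from that in WT. Without cKO 2-cell replicate 1 the interaction was called lower for Ubn1, Cabin1, Chaf1a and Daxx (adjusted p 0.00335 to 0.0248), and for 24.4% of all genes instead of 10.2%. Without replicate 2 it was called higher for Hira (0.0473) and for Ubn1 (0.0454), and for 6.71% of all genes, so that Ubn1 was called in opposite directions with either cKO 2-cell library alone (-2.36 and 0.70). With 1 cKO 2-cell library left, that group has no spread of its own, so these p-values rest on the spread within the other groups. The cKO 2-cell pair of Ubn1 was at 31.1 and 2.83 FPKM, a difference that neither of these fits counts as spread. The calls made without a cKO 2-cell library are therefore a description of the remaining library and do not show a changed genotype effect. The stage comparisons and the genotype comparisons share libraries: the WT 2-cell libraries stand in 3 of these contrasts, and so do the cKO 2-cell libraries.

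The cKO 2-cell replicates differed from each other more than any other pair. More than 3-fold separated them for 15.1% of genes above the floor in both libraries, compared with 0.134% to 0.983% in the other groups, and among the members for Ubn1 (11.0-fold), Cabin1 (5.40-fold) and Chaf1a (3.52-fold), all lower in replicate 2. In FPKM as deposited, 10 of 10 members were below the WT mean in cKO replicate 2 and 7 of 10 in replicate 1, in which Hira (1.72 times the WT mean), Ubn1 (1.36) and Atrx (1.05) were above it. This contrast depended on the scale, since with median-ratio scaling 7 of 10 were below the WT mean in either replicate. The members above it were then Hira (2.15), Ubn1 (1.70) and Atrx (1.32) in replicate 1 and Chaf1b (1.22), Hira (1.07) and Asf1a (1.00) in replicate 2. Npm2 was at 0.602 and 0.607 times the WT mean as deposited and at 0.752 and 0.943 times after scaling. Ubn1 and Cabin1 stayed far below WT in replicate 2 after scaling, at 0.192 and 0.205 times the WT mean. The ratio of replicate 2 to replicate 1 went with transcript length in every group. It declined with length in cKO 2-cell embryos, with a Spearman rho of -0.291 across 9056 genes of the same 2 libraries, and climbed with it in the other groups, with 0.120 in WT 2-cell embryos, 0.242 in cKO zygotes and 0.325 in WT zygotes, given without p since genes are not independent. In cKO 2-cell embryos its median log2 value was 0.28 for transcripts up to 2000 bases, -0.22 from 2000 to 4000 bases and -0.54 above, and in WT zygotes it was -0.33, -0.14 and 0.05 for the same classes. Npm2 has the shortest transcript of the members, 997 bases, and Ubn1 (6455), Cabin1 (7460) and Atrx (10269) have the longest. The part of transcript length in the member values was not tested.

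Without cKO 2-cell replicate 1, limma called 6 members (33.1% of all genes) lower at the 2-cell stage. Without replicate 2 it called 3 members (26.0% of all genes) lower, and Hira (0.71, adjusted p = 0.0246) and 11.5% of all genes higher. These fits take no spread from the cKO 2-cell group, so their calls describe the remaining library only. Chaf1a stood at -1.89 without replicate 1. Ubn1 changed sign, from -1.11 in the full fit to 0.43 without replicate 2.

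**Figure D3:**
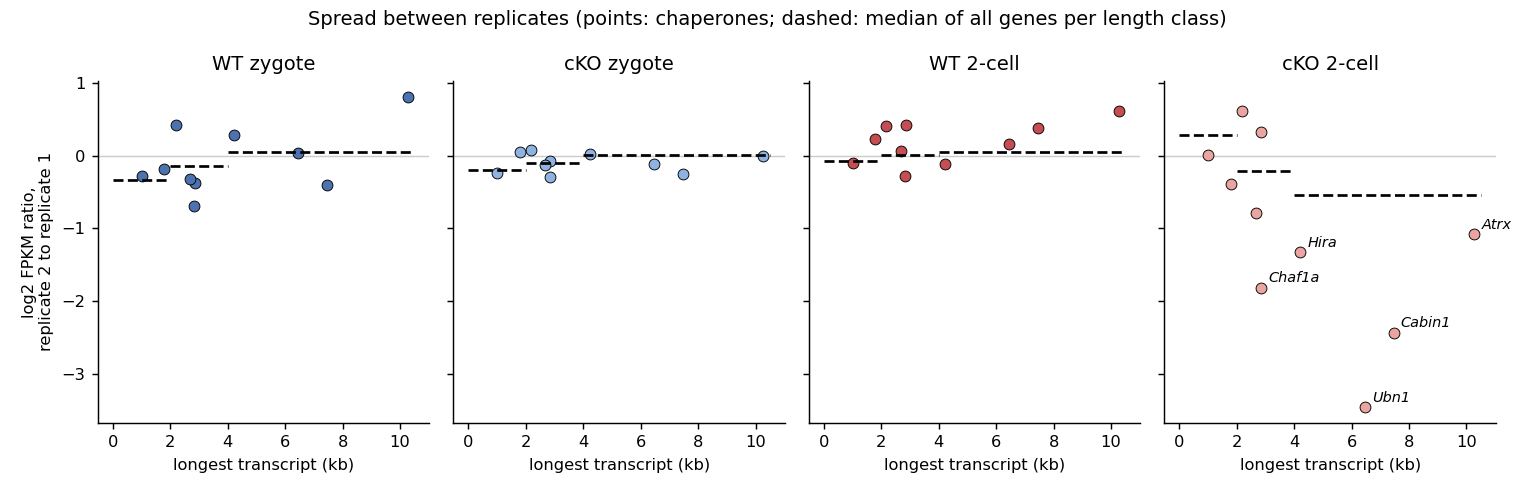
log2 FPKM ratio of replicate 2 to replicate 1 (vertical axis) of each member against the length of its longest annotated transcript in kilobases, in the 4 groups, with dashed lines at the median of all genes in each of 3 length classes. The dashed steps go down with length in cKO 2-cell embryos (0.28, -0.22 and -0.54), and all members but Asf1a and Chaf1b lie below them there.

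Ratios of partner transcripts within a library do not change when the library is divided by a factor, and they are given as a description. They can change with quantile normalization, under which they were not computed. Partners also differ in transcript length, such as Cabin1 (7460 bases) and Hira (4218), or Atrx (10269) and Daxx (2673). The part of length in these ratios was not tested. Chaf1b stood at 0.134 to 0.226 times Chaf1a in the 4 zygote libraries and at 1.58 to 7.82 times in the 4 2-cell libraries, so the more abundant CAF-1 transcript switched between the stages in both genotypes. The mean log2 ratio went from -2.74 ± 0.22 to 1.01 ± 0.49 in WT and from -2.25 ± 0.15 to 1.90 ± 1.51 in cKO embryos. Asf1b to Asf1a went from 1.01 to 1.56 times in zygotes to 3.07 to 6.17 times in 2-cell embryos. Atrx to Daxx went down, from 5.55 to 12.1 times in zygotes to 1.67 to 3.77 times in 2-cell embryos, with both cKO 2-cell libraries (3.77 and 3.10) above both WT libraries (1.67 and 2.44). In the HIRA complex, Ubn1 to Hira went from 6.99 to 9.07 times in zygotes to 2.83 and 3.40 times in WT and to 2.45 and 0.561 times in cKO 2-cell embryos. Cabin1 to Hira was 2.91 to 4.91 in zygotes, 1.64 and 2.31 in WT 2-cell and 0.811 and 0.378 in cKO 2-cell embryos, so Cabin1 was above Hira in the 6 libraries of the other groups and below it in both cKO 2-cell libraries.

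**Figure D4:**
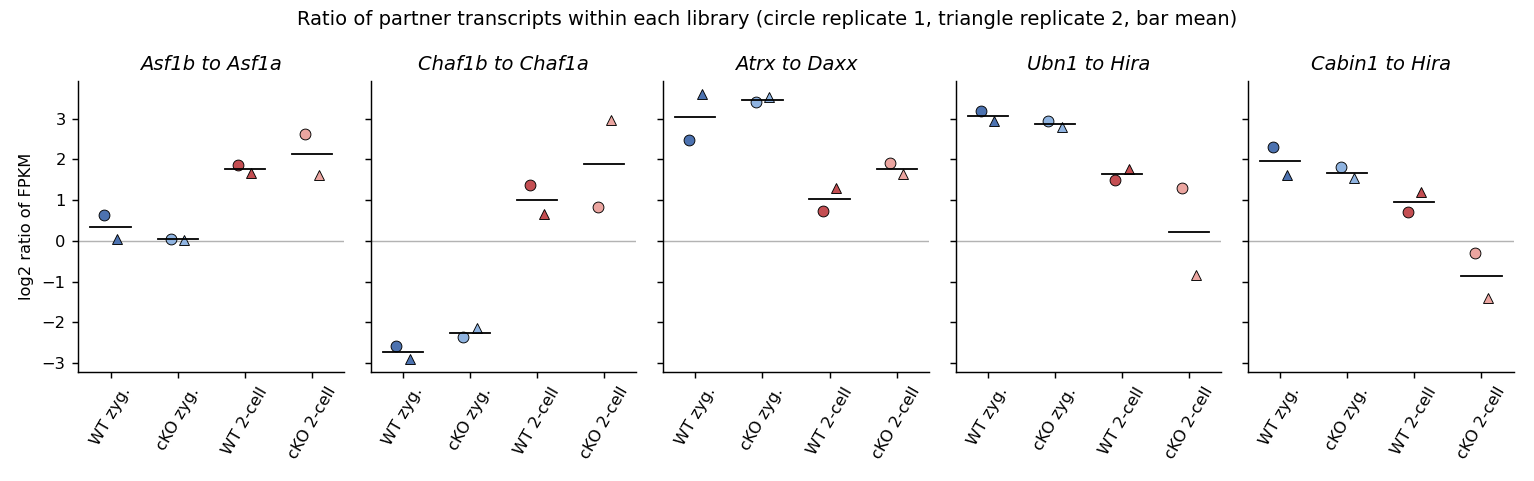
log2 ratio of FPKM between partner genes in each library (circles, replicate 1; triangles, replicate 2; bars, group means), with 0 marking equal levels. Chaf1b to Chaf1a crosses from below 0 in zygotes to above 0 in 2-cell embryos, and Cabin1 to Hira lies below 0 in cKO 2-cell embryos only.

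A further 29 histone chaperones and cofactors outside the 10 were listed for comparison, all of them in the table. In WT embryos 6 of the 29 fell (15.5% of all genes) and 6 rose (34.2%) from zygote to 2-cell stage, and in cKO embryos 6 fell (27.1%) and 8 rose (24.6%). Their median log2 fold change between genotypes at the 2-cell stage was 0.11, against -0.81 for the 10 members and -0.30 for all genes. In zygotes limma called 0 of the 29 between genotypes in either direction, and 0 had an unadjusted p under 0.05. At the 2-cell stage, 2 were lower in cKO (24.6% of all genes) and 3 were higher (6.16%).

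The lower ones were Hirip3, which encodes a HIRA-interacting histone chaperone, and Tonsl, which encodes a reader of newly replicated H4. Hirip3 was at 39.2 and 28.4 FPKM in WT and 12.8 and 15.7 in cKO 2-cell embryos (log2 fold change -1.18, limma adjusted p = 0.0144). Tonsl was at the floor of 1 in all 4 zygote libraries, at 2.56 and 3.19 in WT and at 1.44 and 1.00 in cKO 2-cell embryos (-0.80, adjusted p = 0.00699). Both genes were thus below WT in each cKO library. The higher ones were Nasp, which encodes the carrier of soluble H3-H4, Mis18a (listed as 2610039C10Rik), which acts in the centromeric loading of CENP-A, and Npm1, the nucleolar relative of Npm2. Nasp was at 125 and 152 in WT and 331 and 243 in cKO libraries (1.03, adjusted p = 0.0215), Mis18a at 204 and 155 against 356 and 525 (1.28, 0.0173), and Npm1 at 909 and 1012 against 2939 and 2714 (1.56, 0.00571). Npm1 and Npm2 therefore went opposite ways between the genotypes at this stage. The interaction was called for Npm1 (1.76, limma adjusted p = 0.0265) and Tonsl (-0.80, 0.0410). For Tonsl the floor fixed the zygote difference at 0, so its interaction only repeats its 2-cell difference. Whether its genotype effect changed between the stages cannot be read from that term. The identical floor values also add no spread to its standard error, which was 0.13 for the 2-cell difference. Both interactions were lost with the replicate block (0.0556 and 0.0689), for Npm1 also without any one of the zygote or WT 2-cell libraries (0.0526 to 0.144), and for Tonsl without any zygote library or WT 2-cell replicate 2 (0.0791 to 0.155). The 2-cell call of Nasp was lost without either cKO zygote or WT 2-cell library (up to 0.0893), that of Hirip3 without WT 2-cell replicate 1 (0.0506) and that of Mis18a without WT 2-cell replicate 2 (0.0897). The call of Hirip3 also ended with median-ratio scaling (-0.72, adjusted p = 0.111) and quantile normalization (-0.85, 0.0683), and that of Nasp with sum scaling (0.78, 0.125) and quantile normalization (0.82, 0.0930). Quantile normalization ended the 2-cell calls of Npm1 (1.23, 0.117) and Tonsl (-0.14, 0.404) and their interactions (0.269 and 0.650), and median-ratio scaling the interaction of Tonsl (0.0712). In the fit of the 4 2-cell libraries alone none of these 5 genes passed (0.0967 to 0.122), and with library weights Hirip3, Nasp, Mis18a and Npm1 did not (0.0582 to 0.177), nor did the interaction of Npm1 (0.0541).

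Among those that differed by more than 3-fold between the stages, Rbbp7, which encodes a histone-binding protein shared by several chromatin complexes, was 7.34-fold lower in WT and 8.16-fold lower in cKO 2-cell embryos than in zygotes. Its relative Rbbp4, the small CAF-1 subunit, was at 13.2 and 14.7 FPKM in WT zygotes, 30.3 and 24.9 in WT 2-cell and 28.6 and 59.3 in cKO 2-cell embryos, and rose in cKO embryos by 1.73 (limma adjusted p = 0.00671). In WT embryos Rbbp4 had a log2 fold change of 0.93 that did not pass (adjusted p = 0.0681). Of the CAF-1 transcripts, Chaf1a was thus called lower and Chaf1b and Rbbp4 higher at the 2-cell stage in cKO embryos, while Chaf1b alone was called in WT. The interaction term was not called for Chaf1a (limma adjusted p = 0.318), Chaf1b (0.197) or Rbbp4 (0.334), so no difference between the genotypes was shown for them. The cKO calls of Rbbp4 and Chaf1a were lost in the limma fit of 2 groups only (adjusted p = 0.0740 and 0.0914). Set, a histone chaperone and phosphatase inhibitor, was 10.9-fold higher in WT and 22.1-fold higher in cKO 2-cell embryos, and Oip5, a subunit of the Mis18 complex, 9.80-fold and 11.4-fold. Anp32e, which removes H2A.Z, was 4.29-fold and 4.56-fold higher, and Ipo4, an importin of H3-H4, 6.01-fold and 7.30-fold. Cdan1, an ASF1-binding gene at the floor in all zygotes, was at least 7.58-fold higher in WT and at least 5.20-fold higher in cKO 2-cell embryos. Vps72, an H2A.Z chaperone, was 4.06-fold and 3.44-fold lower and Hirip3 3.54-fold and 9.60-fold lower, while Spty2d1, an H3-H4 chaperone gene, was 4.08-fold lower in WT only by this fold, Dnajc9, a co-chaperone of H3-H4, 3.04-fold lower in cKO only, and Mis18a 3.40-fold higher in cKO only. The interaction term was not called for Spty2d1 (adjusted p = 0.191), Dnajc9 (0.286), Mis18a (0.0976) or Hirip3 (0.0503), so these folds were not shown to differ between genotypes.

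Of the cargo genes, H3f3a, which encodes H3.3, was at 644 and 737 FPKM in WT and at 1270 and 1546 in cKO 2-cell embryos (1.02, limma adjusted p = 0.0172). This call was lost without either cKO zygote library or WT 2-cell replicate 1. Quantile normalization also ended it (0.44, adjusted p = 0.312), as did the fit of 2 groups only (0.158) and library weights (0.128). H3f3b, the other H3.3 gene, was at 709 and 956 in WT and 1377 and 609 in cKO libraries and did not pass (0.15, adjusted p = 0.826). Cenpa, the centromeric H3 gene, rose from zygote to 2-cell stage in WT by 1.55 (adjusted p = 0.00147) and in cKO embryos by 2.12 (0.000378). Npm1, Set, Rbbp7 and H3f3a have near-identical processed copies in the genome, among which their reads may have been split, and their values are uncertain for that reason.

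**Figure D5:**
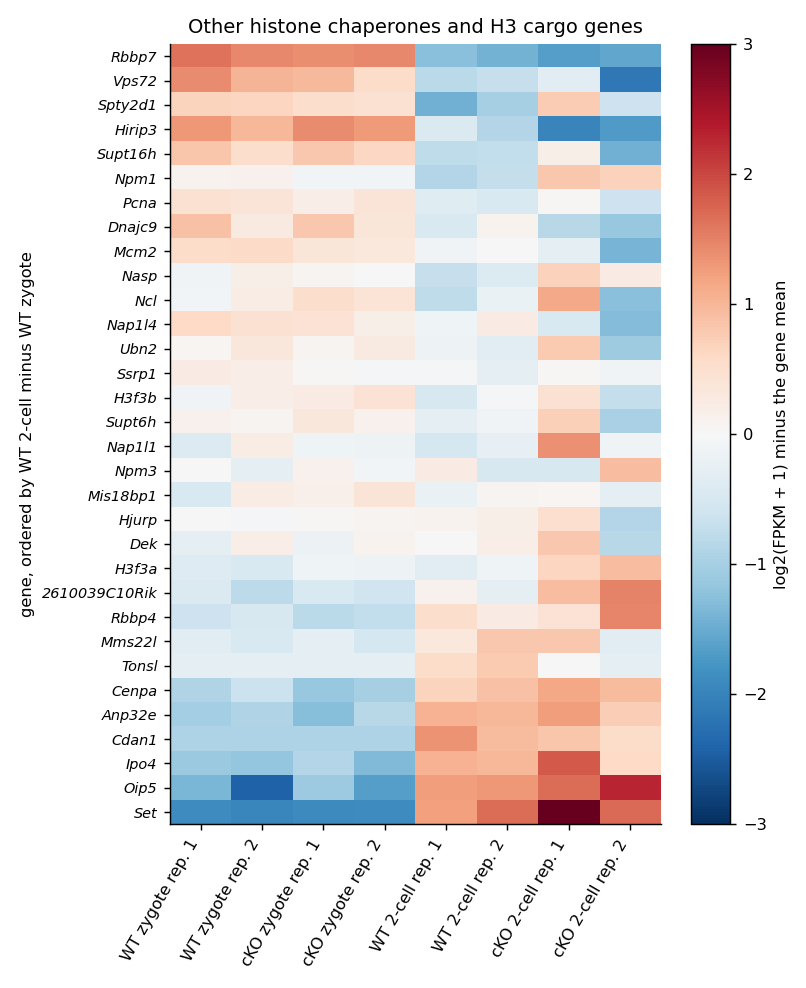
log2(FPKM + 1) minus the gene mean (colour) of the 29 other chaperones and 3 cargo genes (rows, ordered by the WT stage difference) in the 8 libraries (columns). Rbbp7 and Hirip3 are highest in the zygote columns, Set and Oip5 in the 2-cell columns, and Npm1 is higher in both cKO than in both WT 2-cell columns.

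For each member, the 3 genes with the nearest profile were found by the Euclidean distance between centred log2(FPKM + 1) values over the 8 libraries, which all share the contrast of stages. The nearest were Dap3 for Npm2 (distance 0.291), Fbxo43 for Asf1a (0.390), Smad2 for Asf1b (0.201), Scaf1 for Chaf1a (0.255) and Trnp1 for Chaf1b (0.389). For the H3.3 chaperones they were Ahctf1 for Hira (0.268), Gclm for Ubn1 (0.558), Chmp7 for Cabin1 (0.373), Flii for Daxx (0.260) and March6 for Atrx (0.538). The next were Mipep and Sdha for Npm2, Oxct1 and Taok3 for Asf1a, Capza1 and Exosc8 for Asf1b, Sumo3 and Uba1 for Chaf1a, and Cdc6 and Bcl2l12 for Chaf1b. Osbp and Ctdp1 followed for Hira, Zc3h3 and Elac2 for Ubn1, Asap1 and Kctd13 for Cabin1, Ttc5 and 1810031K17Rik for Daxx, and 4933407H18Rik and Mllt10 for Atrx. Pearson's r of these pairs over the 8 libraries was 0.960 to 0.998, which is high by selection, since the nearest profiles were picked. No member was among the 3 nearest genes of another. Only 3 of the 14392 genes were kept for each member, so this cannot tell whether the subunits of a complex have similar profiles.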

How the data were processed

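RNA-seq was analysed in 8 libraries (4 groups of 2). H2AK119ub1 ChIP-seq, 7 samples, was not used here. The authors made Smart-seq2 cDNA from 10 embryos, trimmed reads, mapped them to mm9 with Tophat 2.1.1 and computed FPKM with Cufflinks 2.2.1 (versions per the submitters' processing notes). The FPKM values were deposited per gene after the authors had set values under 1 to 1 and left out genes under 1 in all samples. Further normalization and the annotation are not given in the sources used here. Depth is unknown, and precision rests on 2 libraries per group.

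limma 3.58.1 (R 4.3.3) with a trend in the prior was run here on log2(FPKM + 1), with 4 groups in 1 model, 4 residual degrees of freedom, with p-values adjusted by Benjamini-Hochberg over 14392 genes at 0.05. This pseudocount understates the change of low genes. The methods of the study give a fold above 3 and no test, and that fold of group means is given as a description. The smallest two-sided p of an exact permutation with 2 libraries in each group is 0.333. Scripts were tested on simulated data. Other steps used Python 3.11.15, pandas 2.3.3 and numpy 2.4.6. Positions are from GENCODE M1 on mm9.

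The members and lists were chosen with earlier results of these data known. Named genes were the members, Usp16, other chaperones and cargo genes called between genotypes at the 2-cell stage or 3-fold apart in any comparison, and the 3 nearest profiles of each member. H3f3b is named outside that rule, as the other H3.3 gene, and was chosen after its values were seen. Alternatives were no pseudocount, a mean FPKM filter of 3, median-ratio, sum and quantile scaling, fits of 2 groups only, library weights, the replicate block, leaving out each library, other fold rules and, chosen after seeing the data, a crossed replicate block.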

Additional observations from a re-analysis of the deposited data

Results flagged for a closer look

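Chaf1b stood above WT in both cKO zygote libraries (5.19 and 4.90 against 4.63 and 2.86 FPKM) and below WT in both cKO 2-cell libraries (14.0 and 17.6 against 24.4 and 20.1), so that the genotype order turned between the stages. That turn of the order was not tested as such. The interaction term was -0.85 (limma adjusted p = 0.197), and neither the zygote difference (0.37, adjusted p = 1.00) nor the 2-cell difference (-0.47, 0.243) passed.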

How the results depend on the processing

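Over 17 alternatives, the stage calls of Npm2, Asf1a and Chaf1b in WT and of Npm2, Asf1a, Asf1b and Atrx in cKO embryos passed in each, and no alternative called a member between genotypes in zygotes. Between genotypes at the 2-cell stage Npm2 passed in 7 alternatives (adjusted p 0.0167 to 0.372) and Daxx in 6 (0.00743 to 0.386), and in the WT stage comparison Hira passed in 7 (0.00152 to 0.497) and Asf1b in 6 (0.00322 to 0.186). Between genotypes at the 2-cell stage, median-ratio scaling moved the all-gene median from -0.30 to 0, quantile normalization to 0.01 and sum scaling to -0.43. The cause of these changes was not tested, and the unknown depth limits what can be said of Hira, Chaf1b, Daxx and other low genes.

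Members called lower in cKO 2-cell embryos by limma were 0 with median-ratio scaling, fits of 2 groups only or library weights, and 1 with quantile normalization. From WT zygote to 2-cell stage, 2 were lower with sum scaling and 1 was higher with median-ratio, sum or quantile scaling. From cKO zygote to 2-cell stage, 1 was higher with sum scaling, 2 groups only or library weights. Of the 29 other chaperones, those lower in cKO 2-cell embryos were 1 with the filter, median-ratio scaling or library weights and 0 with quantile normalization or 2 groups only. Those higher were 5 with median-ratio scaling and 0 with 2 groups only or library weights. Lower in the WT stage comparison were 12 with median-ratio scaling, lower in the cKO stage comparison 3 with 2 groups only or library weights, and higher there 5 with 2 groups only. By folds, 3 members were lower in cKO 2-cell embryos at a fold of 2 and 1 with geometric means. At a fold of 2, 2 were higher in the WT stage comparison, and in the cKO stage comparison 0 were higher where every library had to differ 3-fold and 1 with sum scaling.

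Same-numbered libraries deviated together in zygotes (correlation across genes 0.497) but not in 2-cell embryos (-0.239), and other pairs gave -0.047 to 0.110. No label ties the numbers to a shared day or mother, so the block was kept as an alternative. With the replicate number as a block, members higher in the WT stage comparison were 1, as Hira was lost (adjusted p = 0.0553). In that block Npm2 between genotypes at the 2-cell stage had an adjusted p of 0.0505, Asf1a there 0.0307 and Asf1b in the WT stage comparison 0.0729, and other counts stayed within 1.5 times. Crossing the numbers of the cKO 2-cell libraries gave 1 member lower between genotypes at the 2-cell stage.

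Signs that reversed were Hira at the 2-cell stage between genotypes with sum scaling (-0.087), Atrx there with median-ratio (0.045) and quantile scaling (0.099), Ubn1 in the WT stage comparison (-0.28 and -0.46), Cabin1 (-0.22) and Daxx (-0.51) there with quantile normalization, and the Asf1b interaction with median-ratio scaling (0.087). None of these had passed the test. Median-ratio scaling moved mean FPKM in WT 2-cell embryos to 5.97 for Hira, 18.6 for Ubn1, 11.7 for Cabin1, 144 for Asf1b, 18.1 for Chaf1b, 6.25 for Daxx and 105 for Npm2, and also Npm2 in cKO 2-cell embryos to 88.7 and Ubn1 in WT zygotes to 22.7.

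Leaving out 1 library at a time, members called lower numbered 0 to 6 and higher 0 to 1 between genotypes at the 2-cell stage, 2 to 5 and 1 to 2 in the WT stage comparison, 4 to 8 and 1 to 3 in the cKO stage comparison, and 0 to 4 and 0 to 2 in the interaction. The counts of 6, 8 and 4 lower came without cKO 2-cell replicate 1, and the 1, 3 and 2 higher members outside the WT stage comparison without replicate 2. By the fold of 3 the lower members were 0 to 4, 2 to 3 and 4 to 6 in these comparisons and the higher ones 1 to 2 in both stage comparisons. Of the other chaperones, 1 to 10 were lower and 1 to 11 higher between genotypes at the 2-cell stage, 2 to 10 and 5 to 8 in the WT stage comparison, and 2 to 13 and 7 to 12 in the cKO stage comparison. The interaction ran from -0.39 to 0.79 for Hira, -2.36 to 0.70 for Ubn1, -2.05 to -0.088 for Cabin1, -1.35 to -0.76 for Asf1a, -0.61 to -0.22 for Asf1b, -1.87 to -0.42 for Chaf1a, -1.12 to -0.57 for Chaf1b, -1.26 to -0.64 for Daxx, -1.27 to -0.28 for Atrx and -0.67 to -0.39 for Npm2. Ranges that crossed 0 were, between zygotes, -0.18 to 0.020 for Hira, -0.051 to 0.36 for Asf1a, -0.20 to 0.17 for Chaf1a (0.13 in one), -0.17 to 0.11 for Daxx (0.028 in one) and -0.013 to 0.78 for Atrx. Between genotypes at the 2-cell stage they were -0.47 to 0.71 for Hira, -2.64 to 0.43 for Ubn1 and -0.89 to 0.10 for Atrx. In the stage comparisons they were -0.030 to 0.12 (WT) and -2.32 to 0.75 (cKO) for Ubn1 and -1.61 to 0.35 for Cabin1 (cKO). Since groups have 2 libraries, the levels and partner ratios without 1 library are the values of the other, given above. For the same reason, a limma fit without 1 library takes no spread from that library's group, so its counts of calls are descriptive.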
